A study of Rattus norvegicus with 24 samples.

Results

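Medium spiny neurons are the principal neurons of the striatum, the large nucleus below the cortex that receives its dopamine input. They were followed here through 9 genes that are known marks of these cells, Drd1, Drd2, Adora2a, Ppp1r1b, Rgs9, Penk, Tac1, Pde10a and Gpr6, in libraries labelled as frontal cortex. The members were the Ensembl gene entries that carry these names, 9 of 32883 reference genes in the tables, and all 9 were among the 15644 genes that passed the filter on low values. The study compared RNA-Seq of adult male Sprague-Dawley rats that inhaled tungsten particles, with 8 libraries at 0 mg/m3 (Control), 8 at 5 mg/m3 (Low) and 8 at 80 mg/m3 (High). All 24 libraries were of polyadenylated RNA, and Control samples carry the same treatment label with a concentration of 0. Libraries are named below by their group and library number, from 49 to 72. The labels give no animal names, so p-values measure the spread between these samples.

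As background, medium spiny neurons release GABA and fall into a pair of pathways. Direct pathway cells carry the dopamine D1 receptor and make substance P, and indirect pathway cells carry the dopamine D2 receptor and the adenosine receptor encoded by Adora2a and make enkephalin. The D1 and adenosine receptors raise cAMP, which activates protein kinase A, and the D2 receptor lowers it. Cortical neurons express several of these genes too, at lower levels.

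Values are scaled coverage: the mean read depth per base of a gene, divided by the sum over all reference genes of the library and multiplied by 1000000. Because coverage is per base, levels of different genes can be set side by side. Summed coverage before scaling ran from 1639554 to 3069530 per library, and read counts were not part of the tables, so the counting error of a low value is unknown. Fold changes are on the log2(scaled coverage + 1) scale, which understates the change of low genes such as Gpr6. Over all tested genes, after group and a term for libraries 56 to 62, Control 49 and Low 57 lay farthest from the other libraries, with an SD of the log2 deviations of 0.453 and 0.440, where the other 22 lay between 0.182 and 0.334. Libraries 56 to 62 are a set made from a pattern in the data, not a condition in the labels. From the group mean alone, without that term, Control 56, Low 63 and Low 64 lay farthest, at 0.578, 0.529 and 0.524, ahead of Low 57 at 0.462 and Control 49 at 0.458. The set from 56 to 62 holds 1 Control and 6 Low libraries, so that 2 Low libraries lie outside it.

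The labels call the source of the RNA cell lines of the frontal cortex and the study's methods call it tissue, and cortical markers were checked against this label. Slc17a7, the vesicular glutamate transporter of cortical excitatory neurons, had a mean level of 702, and the 12 excitatory markers had a summed level of 2813 to 4423 in Control libraries, of 2941 to 4561 in Low libraries and of 1363 to 4462 in High libraries, with none at 0 in any library. The 9 striatal genes together reached 431 to 1036 in Control libraries, while the Low ones held 286 to 757 and the High ones 207 to 1618, and none of them was at 0. In bulk libraries, fewer cells of a type and less RNA per cell cannot be told apart.

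The promoters that carry letters of the cAMP response element are shown first, since the receptors among the members act through cAMP. The RefSeq table of the GRCr8 assembly held windows for 6 of the 9 genes, 7 windows in all because Pde10a has a pair of starts. The 250 bases before each start were searched on both strands for TGACGTCA, the palindromic element, and for its half-site CGTCA with the reverse complement TGACG, which overlaps the full element. The full element was in 1.59% and the half-site in 18.2% of all 33469 promoters of this length. The members with a window but no half-site were Drd1, Drd2 and Rgs9, and the Pde10a start nearer the 3′ end had none either. Matched letters are in capitals in the 3 windows that hold them:
Gpr6 promoter: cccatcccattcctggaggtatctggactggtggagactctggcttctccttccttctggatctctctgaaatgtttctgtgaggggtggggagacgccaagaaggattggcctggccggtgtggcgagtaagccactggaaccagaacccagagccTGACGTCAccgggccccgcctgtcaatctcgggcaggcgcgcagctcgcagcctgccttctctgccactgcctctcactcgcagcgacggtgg
Tac1 promoter: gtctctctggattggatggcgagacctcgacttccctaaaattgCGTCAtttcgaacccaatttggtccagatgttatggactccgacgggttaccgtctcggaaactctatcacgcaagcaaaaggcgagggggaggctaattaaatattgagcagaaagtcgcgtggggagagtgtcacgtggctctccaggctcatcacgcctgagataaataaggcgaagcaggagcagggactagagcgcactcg
Pde10a distal promoter: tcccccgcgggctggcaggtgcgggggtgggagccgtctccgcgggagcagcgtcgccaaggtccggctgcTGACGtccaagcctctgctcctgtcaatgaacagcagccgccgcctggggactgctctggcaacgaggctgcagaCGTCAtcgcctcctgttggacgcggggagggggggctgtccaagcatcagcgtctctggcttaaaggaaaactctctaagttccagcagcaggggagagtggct
Gpr6 lies on the minus strand at chr20:46075252-46075501, and its full element begins 93 bases before the start. Tac1 lies on the plus strand at chr4:36645333-36645582, with a half-site that begins 206 bases before the start. The distal Pde10a window, on the minus strand at chr1:54765669-54765918, has half-sites that begin 179 and 104 bases before the start. A match of letters describes the window and is not a measured binding site.

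The dopamine and adenosine receptors varied several-fold among libraries of a group. Drd1 (ENSRNOG00000023688, chromosome 17, 11101306 to 11103541), the D1 receptor of direct pathway cells, had a lowest, median and highest level of 13.0, 19.3 and 56.1 in Control, 4.14, 15.3 and 27.7 in Low, and 3.65, 19.6 and 51.1 in High. The High group held both high libraries (65, 66 and 67, at 46.9 to 51.1) and the lowest one (72), and the 3 groups overlapped. Drd2 (ENSRNOG00000008428, chromosome 8, 53678777 to 53743642), the D2 receptor, ran over 8.59, 15.1 and 24.3 in Control, 2.39, 9.09 and 19.8 in Low and 1.61, 9.0 and 42.3 in High. Adora2a (ENSRNOG00000001302, chromosome 20, 14265252 to 14282873), the adenosine receptor of indirect pathway cells, ran over 10.3, 20.1 and 37.5 in Control, 5.41, 13.5 and 29.6 in Low and 2.36, 13.6 and 67.7 in High. Its highest library, High 65, stood 28.6-fold above its lowest, High 68. Gpr6 (ENSRNOG00000049580, chromosome 20, 45813169 to 45815940), an orphan receptor coupled to cAMP production and enriched in indirect pathway cells, was the lowest member in every library, with 3.22, 5.82 and 11.9 in Control, 1.52, 3.30 and 7.48 in Low and 0.789, 4.11 and 15.2 in High.

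The signalling proteins spanned the widest and the narrowest range. Ppp1r1b (ENSRNOG00000028404, chromosome 10, 86303727 to 86312762), which encodes DARPP-32, an inhibitor of protein phosphatase 1, was the highest member in every library, with 231, 325 and 465 in Control, 186, 246 and 368 in Low and 128, 247 and 758 in High. Its 5.92-fold range was the narrowest of the 9. Rgs9 (ENSRNOG00000003800, chromosome 10, 97509971 to 97582188), a protein that speeds the shut-off of G protein signals, had the widest range, 33.4-fold, with 19.6, 36.0 and 63.1 in Control, 5.47, 25.6 and 50.1 in Low and 3.32, 25.8 and 111 in High. Pde10a (ENSRNOG00000011310, chromosome 1, 52360296 to 52544450), the phosphodiesterase that degrades cAMP and cGMP in these neurons, ran over 11.4, 32.5 and 48.4 in Control, 5.87, 27.2 and 39.0 in Low and 15.9, 26.2 and 42.5 in High. Its lowest libraries in their groups were Control 49 and Low 57, and for the other 8 members Control 49 was above the Control median.

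Both neuropeptide precursors were highest in High 65 or High 67. Penk (ENSRNOG00000008943, chromosome 5, 17056419 to 17061837), the enkephalin precursor, ran over 88.2, 147 and 235 in Control, 51.8, 114 and 161 in Low and 33.1, 105 and 407 in High. A short gene model on the same strand, AABR07047044.1, overlaps Penk, and its mean level was 1.70% of that of Penk. Tac1 (ENSRNOG00000007374, chromosome 4, 33638709 to 33646819), the substance P precursor, ran over 30.1, 55.3 and 96.0 in Control, 15.6, 48.0 and 69.9 in Low and 13.9, 38.9 and 152 in High. Libraries High 65, 66 and 67 were the highest 3 for Tac1, and High 68 and 72 the lowest.

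**Figure D1:**
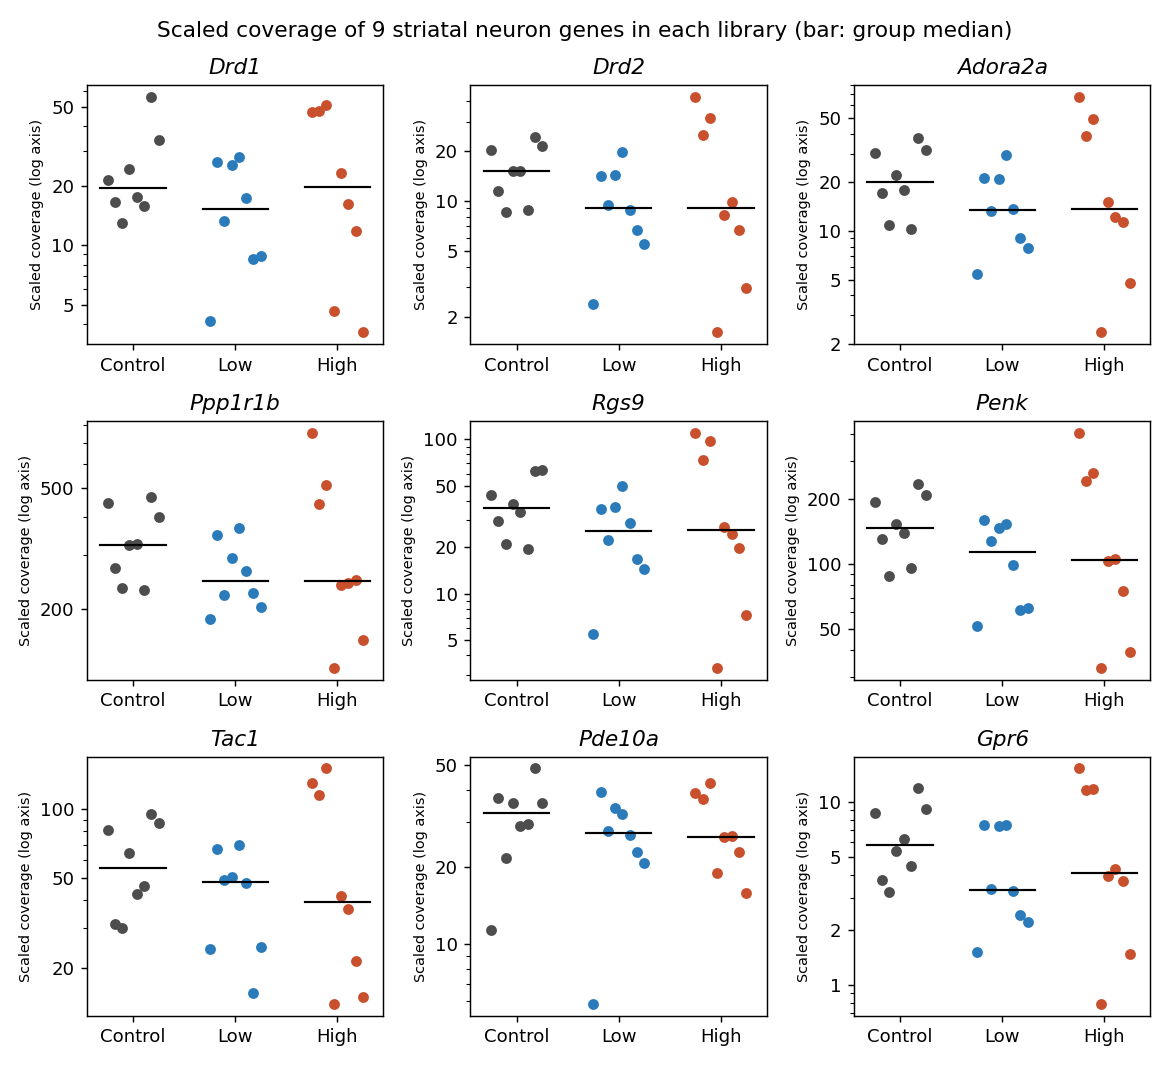
Scaled coverage of the 9 genes on a log axis, 1 point per library in the Control, Low and High groups, with a bar at each group median. High libraries 65, 66 and 67 sit at the top of most panels and High 68 and 72 at the bottom, so that the High group spans the widest range for 8 of the 9 genes, and Pde10a is the exception.

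Averaged over the 24 libraries, the order of levels was Ppp1r1b at 314, Penk at 141, Tac1 at 56.4, Rgs9 at 36.9, Pde10a at 28.6, Drd1 at 22.3, Adora2a at 20.9, Drd2 at 13.9 and Gpr6 at 5.85. The order held in all 24 libraries for 4 pairs of neighbours, namely Ppp1r1b above Penk, Penk above Tac1, Adora2a above Drd2 and Drd2 above Gpr6. Rgs9 was above Pde10a in 12 of the 24 and Drd1 above Adora2a in 15, so these pairs do not differ beyond the spread between libraries. Drd1 lay below Pde10a in 19 libraries and Rgs9 below Tac1 in 23. This is the order of the reference entries, and the place of Pde10a in it depends on the annotated model of that gene.

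The spread between libraries of one group was large beside that of other genes. The within-group SD of log2 values was pooled over the 3 groups. It was 0.588 for Ppp1r1b, 0.643 for Pde10a and between 0.845 for Gpr6 and 1.17 for Rgs9 in the others. Each was larger than that of 93.3% to 99.0% of the tested genes. The median SD of the 9 members was 0.607 in Control, 0.765 in Low and 1.38 in High, where the medians over all tested genes were 0.227, 0.203 and 0.188. The largest SD of a member was 0.664 in Control, 0.939 in Low and 1.68 in High. The 95th percentile over all tested genes was 0.677, 0.732 and 0.550. Above it lay 0 of the 9 members in Control, 6 in Low and 8 in High. High 67 was among the highest 3 of the 24 libraries for 9 of 9 members, High 65 for 7 and High 66 for 6. High 72 was among the lowest 3 for all 9, and High 68 and Low 57 for 8 each.

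The first question was whether inhaled tungsten changed these genes. Low libraries came with no assembled loci, while Control ones had 46334 to 159573 and High ones 50235 to 64010. A difference in processing between Low and the other groups cannot be told apart from dose, and it was not tested. None of the 9 passed the threshold (limma, Benjamini-Hochberg adjusted p under 0.05 over 15644 genes) in any comparison, and none had an unadjusted p under 0.05, by limma or by the exact Wilcoxon rank-sum test. The share of all tested genes called was 6.11% for Low against Control, 0% for High against Control and 11.7% for Low against High. Each of the 9 genes had a lower fitted mean in Low than in Control, with log2 differences of -0.68 (Drd2) to -0.29 (Pde10a), a median of -0.57 and limma adjusted p of 0.471 to 0.642, while with deposited FPKM 3 of the 9 were positive. With libraries 56 to 62 as a covariate, the 9 differences ran from -1.16 (Tac1) to -0.42 (Pde10a) with a median of -1.05 and limma adjusted p of 0.525 to 0.768. That fit rests on few libraries, since Control 56 is the only Control inside the set and Low 63 and 64 the only Low libraries outside it. Counted from the highest, their median ranks for the members were 5, 20 and 21 of 24. With libraries 56 to 62 left out, which leaves 2 in Low, the differences ran from -1.34 (Tac1) to -0.36 (Pde10a). Without Control 49 and Low 57 the median was -0.35. Over all tested genes the median difference was 0.06, and with FPKM it was 0.53, so that relative to this median all 9 were lower in Low with FPKM as well. Drd2 averaged 15.6 ± 5.90 (SD, n = 8) in Control and 10.1 ± 5.65 (SD, n = 8) in Low, and the 95% interval of its log2 difference ran from -1.67 to 0.31. For Drd1 the interval ran from -1.64 to 0.38, so that both a lower and a higher level in Low lie inside it.

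High against Control gave log2 differences of -0.46 (Drd2) to -0.09 (Pde10a) with a median of -0.29, where the median of all genes was -0.03, and limma adjusted p of 0.999 for all 9, while Pde10a was positive with FPKM, with TPM and without scaling, and Ppp1r1b without scaling. The median of the 9 was -0.20 once libraries 56 to 62 entered as a covariate. Over all genes, 330 had an unadjusted p under 0.05 in limma. The arithmetic mean was higher in High for 7 of the 9, such as Rgs9 at 45.5 ± 42.2 (SD, n = 8) against 38.9 ± 16.7 in Control (SD, n = 8) while its mean log2 value was lower. Without scaling, the median of all genes moved to 0.14 for High against Control and -0.12 for Low against High. The Low group against High gave -0.34 (Drd1) to -0.17 (Ppp1r1b), with a median of -0.22 beside 0.09 for all genes and limma adjusted p of 0.671 to 0.793. With libraries 56 to 62 as a covariate, these ran from -1.01 (Tac1) to -0.36 (Pde10a), with a median of -0.78 and limma adjusted p of 0.452 to 0.706. The covariate fit again rests on few libraries. With libraries 56 to 62 left out, the differences ran from -1.15 to -0.31. Without Control 49 and Low 57 the median was -0.08. With deposited FPKM, all members but Drd1 had a positive difference between Low and High, and the median of all genes moved to 0.52. The comparisons share their samples in pairs, and most of the 9 genes vary closely together within groups, so the like signs do not count as separate results.

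**Figure D2:**
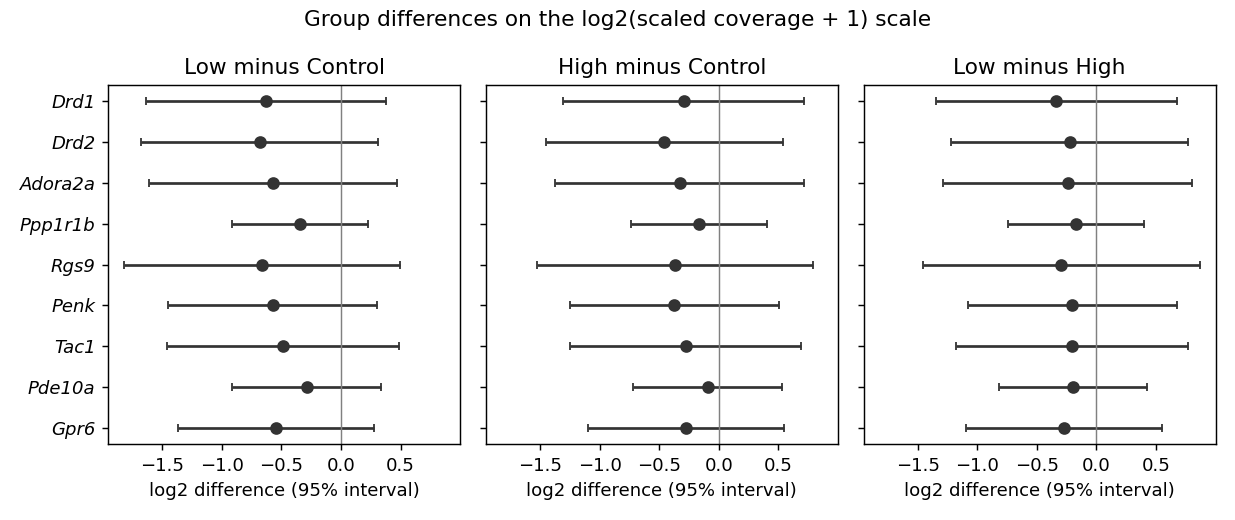
Differences of log2(scaled coverage + 1) between groups for the 9 genes, as points with 95% intervals from limma, with the comparisons in 3 panels. Each interval crosses 0, and that of Rgs9 in Low minus Control runs from -1.82 to 0.50.

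The second question was whether the members vary together inside groups, and Adora2a served as the index. Of the 8 other members, 8 rose with Adora2a within groups (limma with group in the model, adjusted p under 0.05 over 15643 genes), where 5.93% of all tested genes rose (927) and 3.22% fell (503). With median-of-ratios scaling, 861 rose and 1148 fell, and 8 of 8 members still rose. The slope, in log2 units per log2 unit of Adora2a, was 1.09 ± 0.0421 (SE) for Rgs9, 0.95 ± 0.0342 (SE) for Drd2, 0.92 ± 0.0672 (SE) for Drd1, 0.87 ± 0.0712 (SE) for Tac1 and 0.83 ± 0.0340 (SE) for Penk. It was 0.78 ± 0.0426 (SE) for Gpr6, 0.54 ± 0.0271 (SE) for Ppp1r1b and 0.38 ± 0.101 (SE) for Pde10a, the last with an adjusted p of 0.0196 in limma, and 0.0526 without High 67. The members were known beforehand as genes of the same cells, and they were chosen with earlier results of these data known.

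Over 24 libraries, the correlation of group-centred log2 values with Adora2a was r = 0.988 for Drd2 (Spearman rho = 0.983, permutation p = 1e-05 for each, 100000 permutations within groups, two-sided). This is the smallest p these permutations can give, and it was also reached by both coefficients of Rgs9, Penk, Ppp1r1b, Gpr6, Drd1 and Tac1, whose r lay between 0.932 for Tac1 and 0.984 for Rgs9 and whose rho lay between 0.940 for Tac1 and 0.989 for Rgs9. Pde10a had r = 0.619 (permutation p = 0.00023) and rho = 0.811 (permutation p = 3e-05). These 8 relations were computed, and the limma p-values above are adjusted over all genes. Without the 2 libraries farthest from the median of Adora2a, High 68 and High 65, r lay between 0.922 and 0.981 for 7 members and was 0.625 for Pde10a. Without Control 49 and Low 57, it rose to 0.897 for Pde10a and lay between 0.933 and 0.993 for the others. Both libraries were first noticed through their low Pde10a, so the rise for Pde10a follows from their choice and is no support. Over the 17 libraries outside 56 to 62, r lay between 0.938 and 0.992 for 7 members and was 0.576 for Pde10a, and over Low 57 to 62, with 6 libraries, between 0.906 and 0.993 for all 8.

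Members were also compared in pairs. Over all 36 pairs of members, the group-centred r ran from 0.536 to 0.989 with a median of 0.946, and for the 28 pairs without Pde10a from 0.896 upwards. Inside Control, r over these 28 pairs ran from 0.817 to 0.994, inside Low from 0.771 to 0.986 and inside High from 0.922 to 0.996, with 8 libraries each. The 8 pairs with Pde10a ran from -0.016 to 0.483 inside Control, from 0.614 to 0.931 inside Low and from 0.930 to 0.980 inside High. With the High group left out, an alternative chosen after seeing the data, 7 of the 8 members rose with Adora2a, and Pde10a had an adjusted p of 0.471 in limma. The count over all genes then fell from 1430 to 65, and without Control 49 and Low 57 it was 2750.

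**Figure D3:**
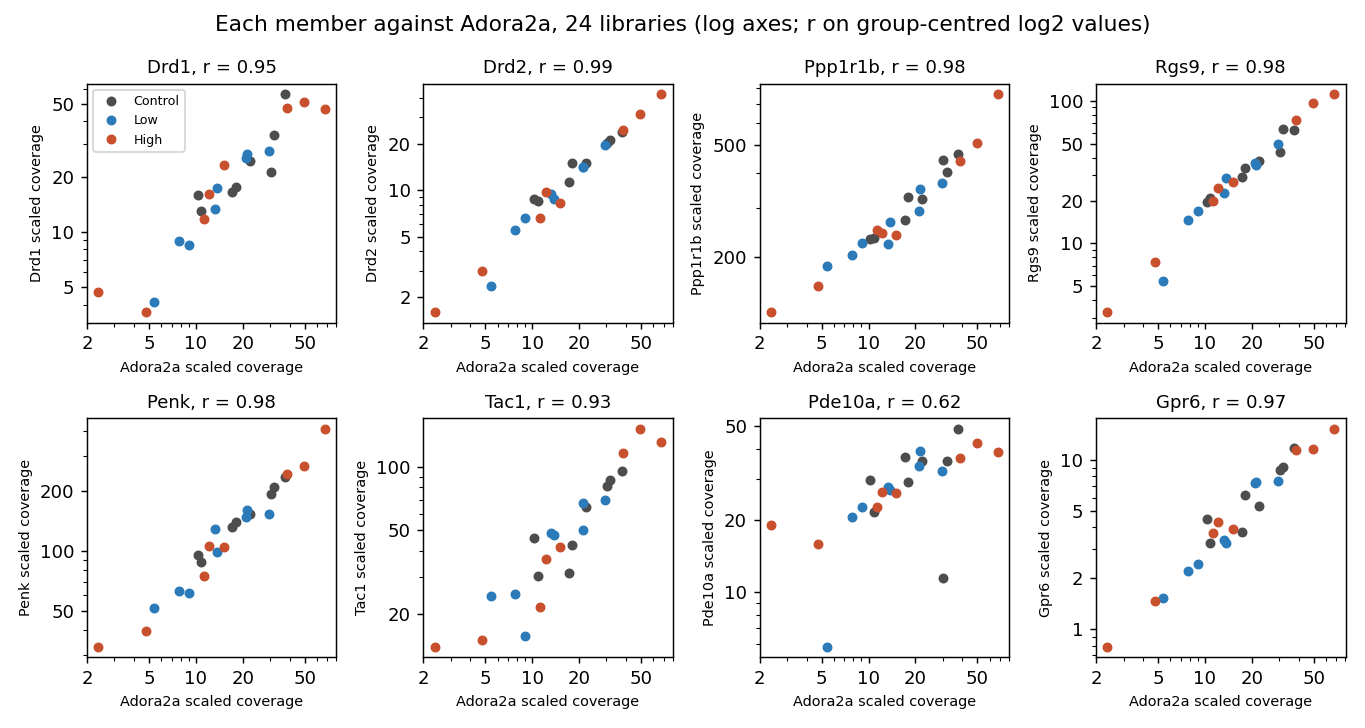
Scaled coverage of each of the 8 other genes against that of Adora2a on log axes, 1 point per library and 1 color per group, with r of the group-centred log2 values in the panel title. The points of 7 genes lie along a line, with r of 0.93 to 0.99, and for Pde10a, with r of 0.62, Control 49 and Low 57 lie below it.

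Ratios inside a library compare the members without the scaling. Rgs9 over Adora2a had a coefficient of variation of 13.4% over the 24 libraries and Adora2a over Drd2 one of 14.7%, where Adora2a itself varied by 74.6%. The ratio of an indirect to a direct pathway mark varied more, with Drd2 over Drd1 running from 0.346 in High 68 to 0.955 in Control 49 (24.7%), and Penk over Tac1 from 1.75 in High 67 to 4.20 in Control 50 (22.6%). Drd2 over Drd1 averaged 0.676 ± 0.166 (SD, n = 8) for Control. It was 0.627 ± 0.0988 for Low and 0.591 ± 0.196 for High, again as SD over 8 libraries, and the groups overlapped. Ppp1r1b over Adora2a was highest in the libraries with least Adora2a, at 54.1 in High 68 against 10.3 in High 67. Pde10a over Adora2a ran from 0.377 in Control 49 to 8.05 in High 68.

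**Figure D4:**
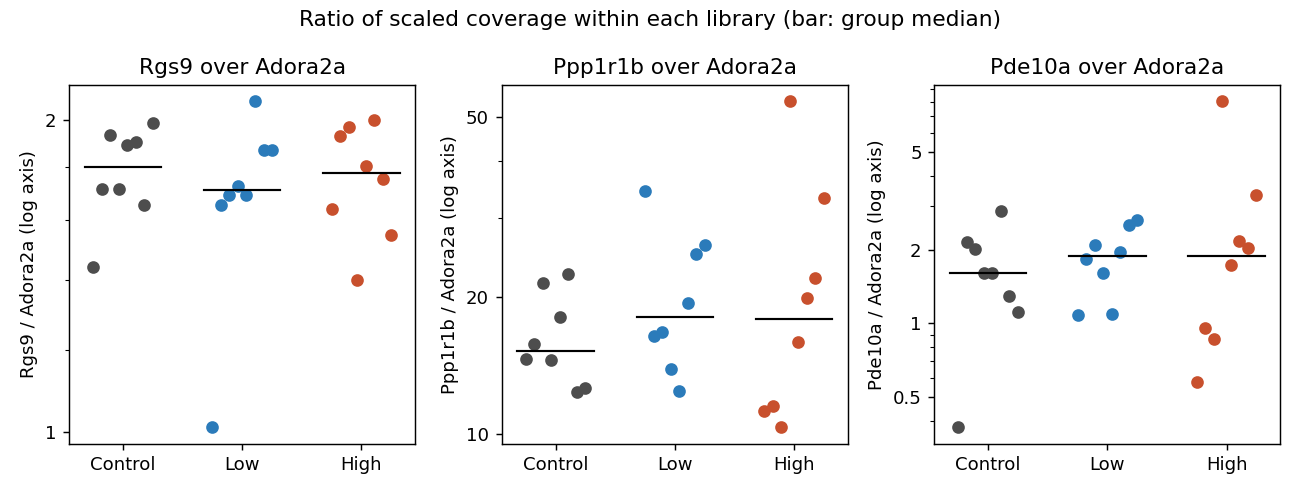
Ratio of scaled coverage of Rgs9, Ppp1r1b and Pde10a to Adora2a in each library on log axes, by group, with bars at the group medians. Rgs9 over Adora2a stays between 1.01 and 2.08, while Pde10a over Adora2a spans 21.4-fold.

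Assembled transcripts of Pde10a ran far past its annotated start. The Control and High tables list loci that the assembler built without the annotation's name, and all 16 of these tables have such a locus on the strand of Pde10a. In 14 of the 16, the locus ran 261070 to 262833 bases past the annotated 5′ end at 52544450, and the exceptions were Control 56 and High 65. The annotated gene spans 184155 bases. For the other 8 members, no same-strand locus ran more than 7655 bases past the annotated 5′ end in any of the 16 tables. The Drd1 locus ran past that end in 11 of the 16, by up to 1828 bases. These extents are a description with no test. In GRCr8, a different assembly, the starts of the 2 Pde10a windows are 264462 bases apart, and the distal one is printed above. In Control 49 the reference entry of Pde10a had a coverage of 22.8 before scaling and the assembled locus 66.1, and in Control 50 the values were 63.9 and 77.4. The locus had the higher coverage in 13 of the 16 tables and the lower in 3, which were Control 51 (9.75 beside 61.4 for the entry), High 66 (12.5 beside 97.8) and High 67 (79.0 beside 109). The Low tables list no assembled loci, so Low 57 could not be compared. Over all 9 members and the 16 tables, 64 of 144 reference entries had an assembled locus of the same coverage within 0.1%, so such loci were not added to the members. In the others the highest locus differed from the entry, such as 5.67% of it for Drd2 in High 65 and 290% for Pde10a in Control 49. Whether signal was split between entries and loci was not tested. Because Low tables list no loci, such a split could not be told apart from dose in comparisons with Low.

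The genes most like the members were named by the r of their group-centred log2 values with the mean of the members' z values, as a description. The 10 highest outside the members were Syndig1l (r = 0.959), Gng7 (0.958), Nexn (0.957), Rem2 (0.956), Asic4 (0.950), Rasgrp2 (0.947), Gnal (0.942), Pdyn (0.939), Lrrc10b (0.935) and Six3 (0.932), all over 24 libraries. Of these, 7 are on the list of other striatal neuron genes, which holds 33 of the 15644 tested genes. Outside the members, 31 genes had r of at least 0.9, and 13 of them are on that list. Since the list was chosen with earlier results of these data known, these counts are no independent support. Gng7 and Gnal encode subunits of the G protein that couples the D1 and adenosine receptors to adenylyl cyclase, Pdyn is the dynorphin precursor of direct pathway cells, and Six3 is a transcription factor of striatal development. Syndig1l ran from 0.713 to 54.2 in scaled coverage, a 76.0-fold range.

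Among 33 tested genes of that list, 30 rose with Adora2a within groups and none fell, where 5.93% of all tested genes rose. The list was chosen with earlier results of these data known, so its count is no independent support. Adcy5, the adenylyl cyclase of the striatum, had a slope of 0.40 ± 0.0520 (SE), and the highest-level genes Arpp21 and Rasd2 0.16 ± 0.0281 (SE) and 0.15 ± 0.0388 (SE). With the High group left out, the count was 15. Between groups, Ano3 alone on the list passed the threshold, higher in Low than in High, at 57.2 and 43.0, with a log2 difference of 0.40 (limma adjusted p = 0.0286), and its slope on Adora2a was 0.02 ± 0.0501 (SE). This is 1 of 33 genes, where 11.7% of all tested genes were called in Low against High.

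Of 27 tested genes of the dopamine, cAMP and peptide receptor pathway, 8 rose with Adora2a and 1 fell, where 5.93% of all tested genes rose and 3.22% fell. Adcy5, Gng7, Gnal and Pde1b are also on the list of striatal genes. The other 4 that rose were Ppp1r1a, an inhibitor of protein phosphatase 1, Prkar2b, a regulatory subunit of protein kinase A, and the receptors Oprk1 (dynorphin) and Tacr1 (substance P), with slopes of 0.15, 0.11, 0.43 and 0.28. Tacr3, a tachykinin receptor, fell with a slope of -0.35 ± 0.0783 (SE). Ppp3ca and Prkar1a, the highest-level genes of the list, did not pass, at -0.11 ± 0.0416 (SE) and -0.01 ± 0.0359 (SE). With the High group left out, 2 rose and none fell, and without High 66, High 67 or High 72 in turn 6 rose. None of the 27 passed in a comparison of groups.

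Markers of other cells moved with the members or against them, where 5.93% of all tested genes rose with Adora2a and 3.22% fell. Of 5 cholinergic neuron markers, 5 rose with Adora2a, from 0.58 for Slc18a3 to 0.93 for Lhx8, with Slc5a7, the choline transporter, at 0.76. Summed over the list, the level was between 5.01 and 38.1 for Control, between 2.63 and 22.3 for Low and between 1.98 and 60.4 for High, and Lhx8 was at 0 in 3 libraries. With the High group left out, 2 of the 5 passed. Of 12 cortical excitatory markers, 7 fell with Adora2a and none rose, among them Slc17a7 at -0.22 ± 0.0559 (SE) and Nrgn at -0.32 ± 0.0742 (SE). Camk2a, at -0.16 ± 0.0830 (SE), did not pass, and with the High group left out none of the 12 did. Without Control 49 and Low 57, 11 of the 12 fell. The lowest summed level of the 12, 1363, was in High 67 and the highest within High, 4462, in High 68. In High 65, where the members summed highest at 1618, it was 3243, inside the Control range. High 66 had 2174, and High 72, among the lowest for the members, had 3924. Of 10 interneuron markers, Gad1, Gad2 and Slc32a1, which make or load GABA and are shared with medium spiny neurons, rose, and Lamp5, Pvalb and Vip fell, while Sst, the highest-level gene of the list, was at -0.01 ± 0.0496 (SE). Without High 67, the list had 1 rising call, and with the High group left out none rose and 1 fell. The part of these cell types in the spread of the members was not tested.

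**Figure D5:**
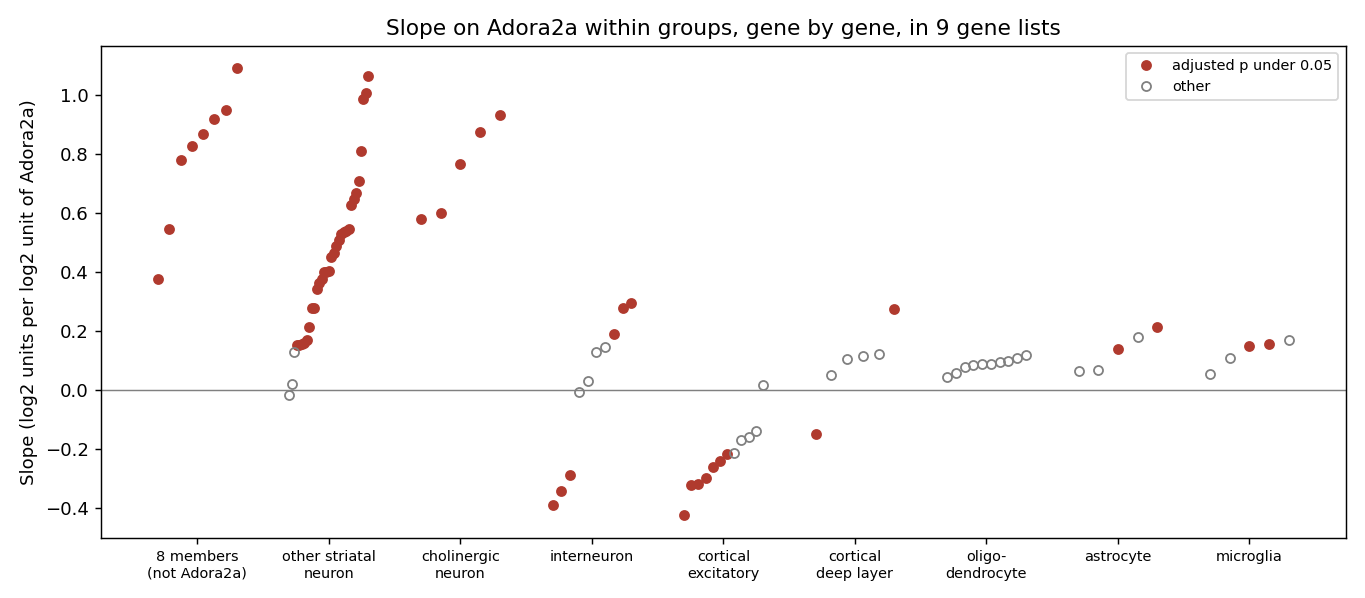
Slope on Adora2a within groups for each tested gene of 9 lists, in log2 units per log2 unit, with filled points for adjusted p under 0.05. The members, other striatal and cholinergic genes lie mostly above 0, the cortical excitatory markers mostly below it, and 0 of 10 oligodendrocyte genes passed.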

How the data were processed

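The tables are 1 StringTie gene table per library. Per the labels and the submitters' processing notes, the authors used FastQC, Trimmomatic, TopHat2 and StringTie, with no versions given, on stranded libraries. The deposited coverage is a signal per base, and the deposited FPKM column is FPKM. The deposited TPM column is TPM in Low, and in Control and High it sums to over 1000000, so it was taken as a score. The notes name mRatBN7.2, but 7680 reference gene names carry contig names of an earlier rat assembly, so coordinates are printed as the tables give them and their build is not settled. Coverage was summed per gene identifier, scaled as stated in the report, and genes with a mean of at least 1 were tested on log2(value + 1) with limma 3.58.1 in R 4.3.3, 3 groups in 1 model with trend and robust settings and Benjamini-Hochberg adjustment. The design took Adora2a as a covariate for slopes. Correlations, exact Wilcoxon rank-sum tests and figures used Python 3.11.15, scipy 1.17.1 and matplotlib 3.10.9. The limma fits and the rank-sum test were tested on simulated data, and the correlations with their permutation p-values were not. For limma, the simulated noise was independent between genes, and changes were planted only in genes with a smaller within-group SD than any member. It therefore does not show how well a change in the members would be found. The members and lists were chosen with earlier results of these data known. Named genes were all members, the 10 genes most like them, and from each list the 2 highest in level and any past the threshold in a group comparison, except that some genes are not reported here. Among genes outside this rule, those named for their slopes were chosen after their values were seen. No pair of the 276 library pairs shared equal coverage in more than 2.31% of tested genes. Alternatives covered the pseudocount, filter, scaling, unit, model, test and each library left out.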

Additional observations from a re-analysis of the deposited data

How the results depend on the processing

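No member passed the threshold in any of the 3 comparisons under any alternative, and the lowest adjusted p of a member was 0.277 for Low against Control, 0.546 for High against Control and 0.328 for Low against High. Of 333 alternative differences each, 330, 325 and 316 were negative. For Low against Control, FPKM gave 0.17 for Ppp1r1b, 0.067 for Tac1 and 0.25 for Pde10a. For High against Control, no scaling gave 0.015 for Ppp1r1b and 0.090 for Pde10a, and Pde10a was 0.051 with FPKM and 0.052 with TPM. Leaving out 1 library each, Low against Control ran from -0.76 to -0.41 for Drd1, -0.82 to -0.40 for Rgs9, -0.61 to -0.30 for Tac1 and -0.47 to -0.026 for Pde10a, the last without Low 57, and High against Control ran from -0.62 to 0.0061 for Adora2a, -0.65 to 0.022 for Rgs9 and -0.27 to 0.014 for Pde10a. For Low against High, FPKM gave 0.16 for Drd2, 0.12 for Adora2a, 0.29 for Ppp1r1b, 0.10 for Rgs9, 0.26 for Penk, 0.28 for Tac1, 0.19 for Pde10a and 0.032 for Gpr6, and the Wilcoxon test's shift gave 0.11 for Tac1. Leaving out 1 library each, Low against High ran from -0.53 to 0.051 for Drd2, -0.58 to 0.046 for Adora2a, -0.34 to 0.023 for Ppp1r1b, -0.45 to 0.060 for Penk, -0.44 to 0.041 for Tac1 and -0.30 to 0.065 for Pde10a. The sign turned without High 65 for Drd2, Adora2a, Ppp1r1b, Penk and Tac1, without High 67 for Tac1 and without Low 57 for Pde10a, and, for High against Control, without High 68 for Adora2a and Rgs9 and without Control 55 or High 72 for Pde10a. The cause was not tested.

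The count of genes associated with Adora2a was 1430, and 782 to 2061 with each library left out (782 without High 67 and 943 without High 68). Alternatives added after seeing the data were the fits without Control 49 and Low 57, which gave 2750 and, for Pde10a in Low against High, 0.065; without libraries 56 to 62, which gave member medians of -1.08 for Low against Control, -0.21 for High against Control and -0.82 for Low against High; and with Control and Low alone, which gave 65. Pde10a lost its call with Adora2a without High 67 (adjusted p = 0.0526). Over all genes, High against Control had 0 calls, 330 at an unadjusted p under 0.05 in limma and 887 in the Wilcoxon test, and 390 calls without Control 49 and Low 57. Low against Control had 956 calls, 566 with only the groups compared, 361 with libraries 56 to 62 as a covariate and 12393 with FPKM. Low against High had 1828 calls, 354 with that covariate and 12410 with FPKM. No paired analysis was possible because the groups share no replicate numbers.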

Other observations

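Genes outside the lists, and Lamp5 of the interneuron list, ran against the striatal genes, and they were chosen after their values were seen. Stac2 had the lowest r with the mean of the members (-0.887 over 24 libraries), with scaled coverage from 24.97 to 135. Next came Cd34 (-0.869), a surface protein of blood vessels and progenitor cells, and Igfbp4 (-0.859), a binding protein of insulin-like growth factors. Lamp5, a marker of a class of cortical interneurons, had -0.839.

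Glial and other lists were fitted on Adora2a in the same way, where 5.93% of all tested genes rose and 3.22% fell. Of 10 oligodendrocyte genes none passed in either direction, with Mbp at a slope of 0.10 ± 0.0662 (SE), and the list summed to 2763 in High 68 and 8779 in Low 63. Of 5 astrocyte markers 2 rose, Gfap at 0.21 and Slc1a3 at 0.14, while Slc1a2 was at 0.07 ± 0.167 (SE), and of 5 microglia markers 2 rose, Aif1 at 0.16 and Csf1r at 0.15, with P2ry12 at 0.17 ± 0.0669 (SE) not past the threshold. The microglia count was 0 without High 66, High 67 or High 72, the astrocyte count 1 without High 66, 67, 68 or 72, and both were 0 with the High group left out. Of 6 deep-layer cortical markers, Syt6 rose at 0.27 and Etv1 fell at -0.15, and Crym and Rprm did not pass; without High 67 none fell, and with the High group left out none passed. Etv1 was also higher in Low than in Control, at 40.6 and 30.2 (limma adjusted p = 0.0376), where 6.11% of all tested genes were called. Of 8 olfactory bulb markers, Cdhr1 and Calb2 rose at 0.61 and 0.49, with Dlx1 at 0.06 ± 0.0671 (SE), and the count was 1 without High 68 or High 72, 4 without High 65 and 0 with the High group left out. None of the 3 tested choroid plexus markers passed, with Ttr at 0.19 ± 0.278 (SE) and Aqp1 at 0.21 ± 0.128 (SE), and none of the 3 endothelium markers, with Slc2a1 at 0.03 and Flt1 at -0.01.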
